A study of Arabidopsis thaliana with 4 samples.

Results

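The SWEET sugar transporters of Arabidopsis thaliana are described here through 10 genes, SWEET1, SWEET2, SWEET4, SWEET11, SWEET12, SWEET13, SWEET14, SWEET15, SWEET16 and SWEET17. They were chosen by locus, as 10 of the 24904 rows of a count table of poly(A) RNA, and the family has 17 genes in this species. The libraries compared were 2 of leaf protoplasts and 2 of whole leaf, all from wild-type plants of the accession Col-0 that were 6 weeks old and had been kept in short days of 8 h light. Protoplasts are single cells freed of their walls. For them the lower epidermis was peeled off with tape, the leaf was cut beside the main vein, and a bath of 0.6 M mannitol with 0.3% macerozyme and 1% cellulase freed the cells within 2 h, after which they were filtered and washed. The leaves of the other group are described as not protoplasted. Their labels carry the same peeling protocol, so whether their lower epidermis was also removed cannot be told from the labels. The libraries were made in the study to compare the RNA of intact leaf with that of cells isolated as for single-cell sequencing. Replicates are labelled biological, but no plants, pools or days are named, so the spread on which p-values rest is that between libraries and may be technical.

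SWEET proteins are membrane carriers that let sugars pass down their concentration gradient, in either direction. In the plant's phylogeny, clades I and II hold carriers that mainly move hexoses, clade III holds the sucrose carriers of the plasma membrane, and clade IV holds fructose carriers of the vacuolar membrane. In the Arabidopsis leaf, SWEET11 and SWEET12 release sucrose from phloem parenchyma cells into the wall space, from which the proton symporter SUC2 takes it up into companion cells for export.

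Most SWEET transcripts were scarcer in protoplasts than in leaf. SWEET2 was level, SWEET16 overlapped between the groups, and SWEET14 had 5 counts in all, from 1 protoplast library. Summed over the 10 genes, they held 65.1 and 65.4 CPM (counts divided by the library size in units of 1e+06 counts, after scaling with TMM factors) in the protoplast libraries, against 349 and 357.5 CPM in the leaf libraries. Without SWEET2 the sums were 17.8 and 17.1 CPM in protoplasts, against 297 and 313 CPM in leaf. SWEET11 was the most abundant member in leaf and SWEET2 in protoplasts, per length as well as by CPM. Of the 9 members that passed the filter on low counts, 7 fell in protoplasts, 0 rose and 2, SWEET2 and SWEET16, were not past the threshold (edgeR quasi-likelihood test, adjusted p under 0.05 over all genes). The count of members that rose was also 0 at an unadjusted p under 0.05 and with DESeq2. SWEET14 did not pass the filter, and SWEET1 and SWEET4 had fewer than 10 counts in both protoplast libraries and passed through leaf.

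The whole transcriptome differed widely, which sets the background for these counts. Of 20200 genes tested, 80.5% were called, 40.7% lower and 39.8% higher in protoplasts, and 5.02% were called and at least 16-fold lower. SWEET11, SWEET12 and SWEET13 were past that fold with 10 or more counts in every library. SWEET1 and SWEET4, which passed the filter through leaf, were past it too, but SWEET4 was at -3.71 on the log2 scale without protoplast replicate 1, short of 16-fold. The median log2 fold change was -4.35 over the 9 tested members and -2.51 over the 7 left without SWEET1 and SWEET4, beside -0.04 for all tested genes. The median of all genes depended on the scaling and was -0.01 with RLE factors, -0.37 by upper-quartile scaling and -0.85 by library size only. The fold changes below use TMM factors and are not centred on this median, and those of the members shifted with it between scalings. In protoplasts every one of the 7 called members was below every leaf value, as were 46.4% of all tested genes, and 90.3% of all tested genes had groups that did not overlap in either direction. In bulk samples, fewer cells of a type and less RNA per cell cannot be told apart. For 1 gene in 2 libraries against 2, the smallest p of an exact permutation test is 0.333, and the calls draw on the spread estimated across genes.

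**Figure D1:**
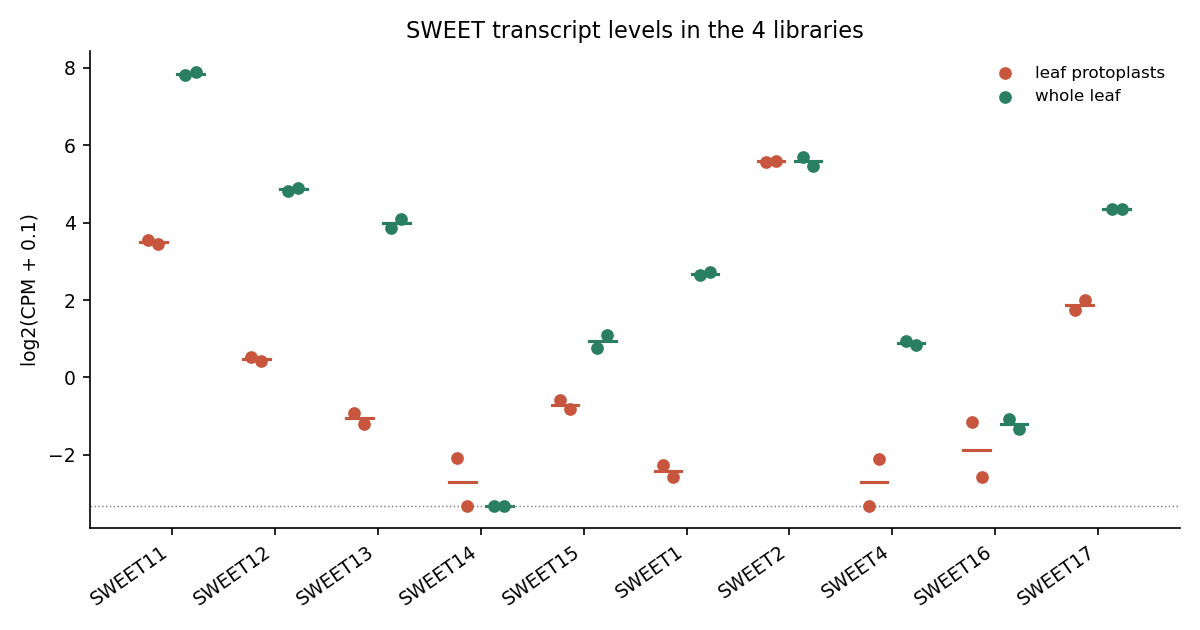
SWEET transcript levels in each library, as log2(CPM + 0.1), with protoplasts left of leaf for each gene, 1 point per library and a line at the mean of the log values. The dotted line marks 0 counts; SWEET2 lies at the same height in all libraries, at 44.4 to 51.9 CPM, while SWEET11 is at 11.6 and 10.9 CPM in protoplasts and 224 and 236 CPM in leaf.

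Library totals were 48503141 and 39958035 counts for protoplasts and 42121436 and 43685947 counts for leaf, and the floor of 3 counts used below stands at 0.0810 and 0.100 CPM in protoplasts and 0.0538 and 0.0520 CPM in leaf. Floors, Wilson intervals and exact intervals of count ratios cover counting error only, whereas intervals of log2 fold changes include the estimated spread between libraries. The tissue labels were compared with marker genes. Their lists were chosen with earlier results of these data known, so this is no independent check of the labels. The leaf libraries held markers of mesophyll, epidermis, guard cells, phloem and xylem. In the protoplast libraries the 6 mesophyll markers summed to 37830 and 38100.0 CPM, against 25240 and 25650 CPM in leaf. This difference depends on the TMM factors. With library size only, RCA and LHCB4.2 were lower in protoplasts (-0.29 and -0.36), while GAPB was at 0.07 and CA1 at 0.30. The epidermis and vascular markers were low in protoplasts, with values given beside the results.

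Paralogs of this family are similar enough to raise the question whether their reads can be told apart. In the RefSeq annotation of TAIR10.1, each of the 10 genes has 6 exons and lies on the minus strand, and the closest pairs are SWEET11 and SWEET12, with coding sequences 82.6% identical over 852 aligned bases, SWEET13 and SWEET14 (81.4%) and SWEET16 and SWEET17 (78.4%). The longest runs these pairs share are 29, 24 and 19 bases. No stretch of 150 aligned bases, the length of a read, held fewer than 14 differences between SWEET11 and SWEET12, 11 between SWEET13 and SWEET14 or 26 between SWEET16 and SWEET17. The coding stretch around the longest shared run of the first 2 pairs is shown as an example of how the paralogs differ where their identity is unbroken for longest. Capitals mark bases that differ within a pair, sequences run 5′ to 3′ on the coding strand, and positions count from the A of the start codon. The windows cover bases 505 to 593 of SWEET11 (chromosome 3) and SWEET12 (chromosome 5), with 8 differences, and bases 451 to 534 of SWEET13 (chromosome 5) and SWEET14 (chromosome 4), with 9.
SWEET11: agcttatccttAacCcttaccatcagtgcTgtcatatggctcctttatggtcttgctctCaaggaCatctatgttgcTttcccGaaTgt
SWEET12: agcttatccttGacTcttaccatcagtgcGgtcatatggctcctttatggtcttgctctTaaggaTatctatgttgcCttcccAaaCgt
SWEET13: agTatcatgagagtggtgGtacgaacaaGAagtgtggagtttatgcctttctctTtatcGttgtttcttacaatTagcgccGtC
SWEET14: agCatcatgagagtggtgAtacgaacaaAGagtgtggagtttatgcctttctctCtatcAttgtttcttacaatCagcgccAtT

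The clade III sucrose carriers of the leaf phloem all fell, SWEET13 more than SWEET11 and SWEET12. SWEET11 (AT3G48740) had 11.6 and 10.9 CPM in the protoplast libraries, against 224 and 236 CPM in the leaf libraries. Both protoplast values lay far under both leaf values, with 429 and 326 counts behind them in protoplasts and 12499 and 13592 in leaf. The mean was 11.2 ± 0.49 CPM in protoplasts and 230 ± 8.0 CPM in leaf (SD, n = 2 each), a log2 fold change of -4.35 ± 0.06 (SE; edgeR, adjusted p = 6.4e-15), and 4.45% of all tested genes had a lower one. SWEET12 (AT5G23660), its closest paralog and partner in sucrose release, had 1.35 and 1.24 CPM in protoplasts, against 28.0 and 29.8 CPM in leaf. Its log2 fold change was -4.47 ± 0.11 (edgeR, adjusted p = 9.36e-13), and its 95% interval of -4.71 to -4.23 overlaps that of SWEET11, -4.49 to -4.21. SWEET13 (AT5G50800), a sucrose carrier that is known to be raised when SWEET11 and SWEET12 are both lost, had 0.432 and 0.334 CPM in protoplasts, against 14.5 and 17.0 CPM in leaf. The protoplast libraries held 16 and 10 counts of it and the leaf libraries 809 and 982. Its log2 fold change of -5.33 ± 0.18 (edgeR, adjusted p = 2.61e-11) had a 95% interval of -5.74 to -4.93, below those of SWEET11 and SWEET12.

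The other clade III members were scarce in every library. SWEET15 (AT5G13170), also named SAG29 as a gene of senescing leaves, had 0.567 and 0.468 CPM in protoplasts, against 1.60 and 2.04 CPM in leaf, from 21 and 14 counts in protoplasts and 89 and 118 in leaf. The groups did not overlap, and the log2 fold change was -1.80 ± 0.27 (95% interval -2.39 to -1.21; edgeR, adjusted p = 5.02e-05). It was the smallest fall among the 7 called members. SWEET14 (AT4G25010), known from anthers together with SWEET13, had 5 and 0 counts in protoplasts and 0 counts in both leaf libraries. A count of 0 allows up to 3 counts in a library, and as 1 protoplast library also stood at 0, no fold is given. In the authors' deposited table its adjusted p is 0.211.

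SWEET2 (AT3G14770), a clade I glucose carrier of the vacuolar membrane known from roots, was the exception in level. It had 47.3 and 48.3 CPM in protoplasts, against 51.9 and 44.4 CPM in leaf. The protoplast values lay between the leaf values, and the means were 47.8 ± 0.71 CPM in protoplasts and 48.1 ± 5.3 CPM in leaf (SD, n = 2 each). The log2 fold change was -0.01 ± 0.07 with a 95% interval of -0.17 to 0.15 (edgeR, adjusted p = 0.905), and 51.3% of all tested genes had a lower value. This depended on the scaling, since SWEET2 was called lower with upper-quartile factors (-0.34, adjusted p = 0.000771) and by library size alone (-0.82, adjusted p = 8.11e-09), where the medians of all genes were -0.37 and -0.85.

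SWEET1 and SWEET4, which carry hexoses, fell to a few counts. SWEET1 (AT1G21460), a glucose carrier of clade I, had 0.108 and 0.0668 CPM in protoplasts, against 6.12 and 6.53 CPM in leaf. These values rest on 4 and 2 counts in protoplasts and 341 and 377 in leaf. The log2 fold change of -6.10 ± 0.27 (edgeR, adjusted p = 3.61e-10) was the lowest value among the members. Its 95% interval of -6.69 to -5.51 overlaps those of SWEET4 (-5.94 to -3.70) and SWEET13 (-5.74 to -4.93), so this rank is not settled. Leaf held 70.7 times the SWEET1 counts of protoplasts (exact 95% interval 32.3 to 193). The annotated SWEET1 overlaps SCL1 on the other strand by 52 bases, 4.0% of its exonic length, and with the strand setting unknown, reads there cannot be assigned to either gene. SWEET4 (AT3G28007), a hexose carrier of clade II, had 0 and 4 counts in protoplasts, against 102 and 98 counts in leaf. Its log2 fold change was -4.82 ± 0.51 (edgeR, adjusted p = 2.22e-06), and leaf held 29.5 times the counts of protoplasts (exact interval 11.4 to 109). Either protoplast library decides this size, which was -3.71 without protoplast replicate 1 and -9.47 without protoplast replicate 2, where only 0 counts remain and the fitted value is no bound.

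Of the other 7 family genes, 2 had rows. SWEET5 (AT5G62850, also AtVEX1), known from the vegetative cell of pollen, had 1 and 0 counts in protoplasts, against 34 and 56 counts in leaf, a ratio of 53.1 between leaf and protoplast counts (exact interval 9.3 to 2120; edgeR, adjusted p = 2.37e-05). Like SWEET1 and SWEET4, it passed the filter through leaf, so only a fall could be called. SWEET8 (AT5G40260), needed for the pollen wall, had 1 count in each protoplast library, against 0 and 1 counts in leaf, and was not tested. The remaining 5 were not analysed here.

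The clade IV carriers of the vacuolar membrane differed from each other in level. SWEET17 (AT4G15920), a fructose carrier of the vacuole in leaves and roots, had 3.27 and 3.88 CPM in protoplasts, against 20.4 and 20.2 CPM in leaf. The leaf values nearly coincide and the protoplast values are both far lower, with 121 and 116 counts in protoplasts and 1135 and 1164 in leaf. The log2 fold change was -2.51 ± 0.10 (edgeR, adjusted p = 1.32e-10), and 8.85% of all tested genes had a lower value. SWEET16 (AT3G16690), a vacuolar carrier of hexoses and sucrose, had 0.351 and 0.0668 CPM in protoplasts, against 0.377 and 0.295 CPM in leaf. The counts were 13 and 2 in protoplasts and 21 and 17 in leaf, so the groups overlap and 1 protoplast library is low. The log2 fold change was -0.58 ± 0.54 with an interval of -1.77 to 0.60 (edgeR, adjusted p = 0.335). Without protoplast replicate 1 it was -2.30 and called (adjusted p = 0.0369), and without protoplast replicate 2 it was 0.06, so single libraries decide it. It was also called lower with library size only (-1.38, adjusted p = 0.0192).

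**Figure D2:**
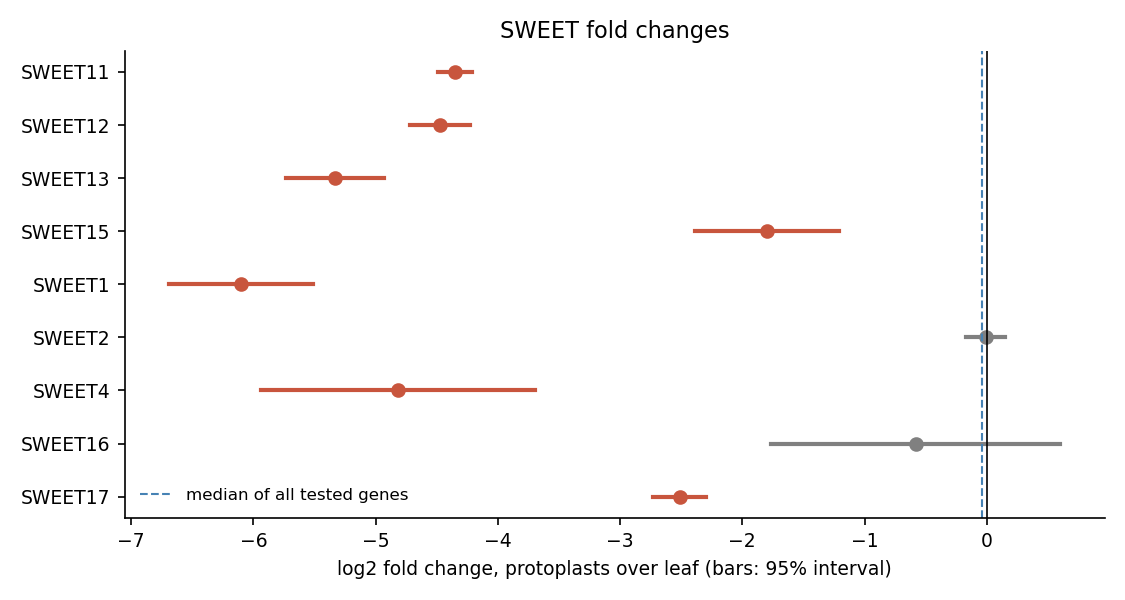
Log2 fold change of protoplasts over leaf for the 9 tested SWEET genes, with 95% intervals; red marks genes past adjusted p 0.05 and grey those that are not, and the dashed line is the median of all tested genes at -0.04. SWEET2 at -0.01 and SWEET16 at -0.58 span 0, and the other 7 lie between -6.10 and -1.80.

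The make-up of the SWEET pool differed between the groups. To compare genes, CPM were divided by the coding length in kb. SWEET2 then stood at 67.2 ± 1.0 CPM per kb in protoplasts and 67.7 ± 7.4 CPM per kb in leaf, and SWEET11 at 12.9 ± 0.56 CPM per kb in protoplasts and 264 ± 9.2 CPM per kb in leaf (SD, n = 2 each). SWEET2 took 75.8% and 76.8% of the summed SWEET level per kb in the protoplast libraries, against 17.3% and 14.6% in the leaf libraries. SWEET11 took 15.2% and 14.2% in protoplasts, against 61.3% and 63.2% in leaf. SWEET12 took 1.79% and 1.63% in protoplasts, against 7.76% and 8.09% in leaf, while SWEET17 took 5.13% and 6.03% in protoplasts, against 6.67% and 6.48% in leaf. These shares do not depend on the scaling of libraries.

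**Figure D3:**
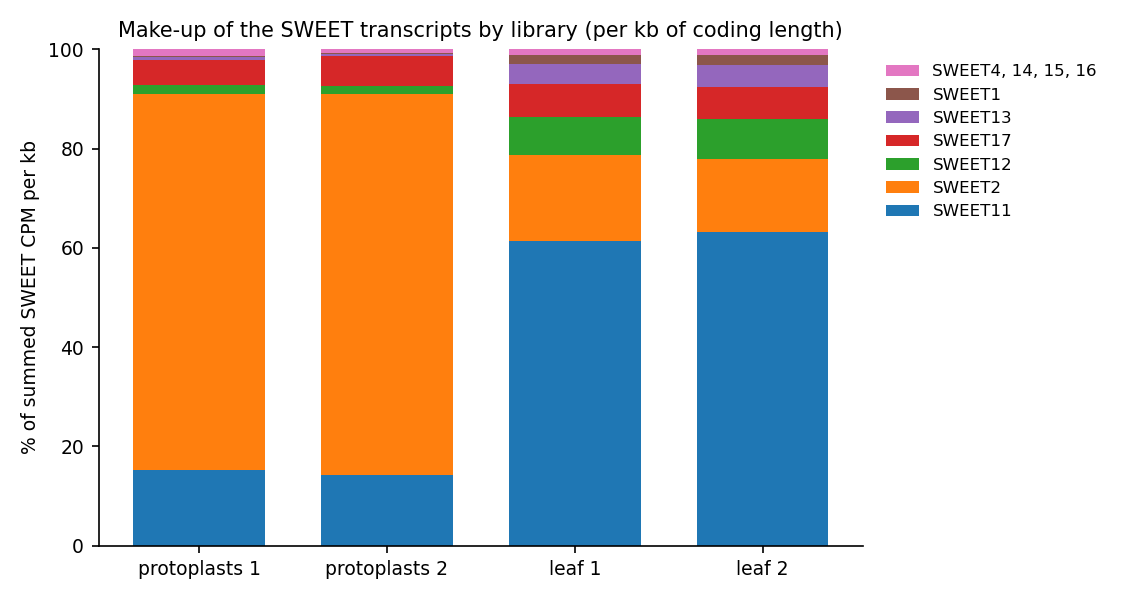
Share of each SWEET gene in the summed CPM per kb of coding length, in percent, for the 2 protoplast libraries (left) and the 2 leaf libraries (right). SWEET2 fills 75.8% and 76.8% of the protoplast bars, and SWEET11 61.3% and 63.2% of the leaf bars.

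The order of levels per kb in protoplasts was SWEET2, SWEET11, SWEET17, SWEET12, SWEET15, SWEET13, SWEET16, SWEET1, SWEET4 and SWEET14. In leaf it was SWEET11, SWEET2, SWEET12, SWEET17, SWEET13, SWEET1, SWEET4, SWEET15, SWEET16 and SWEET14. In protoplasts the first 5 each lay above the next in both libraries, whereas SWEET13 and SWEET16 overlapped, as did SWEET16 and SWEET1 and the 3 lowest among each other. In leaf only SWEET4, with 2.42 and 2.25 CPM per kb, and SWEET15, with 1.82 and 2.33 CPM per kb, overlapped as neighbours.

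Ratios of counts within a library need no scaling and compare the members with each other. SWEET12 made up 10.4% (Wilson 95% interval 8.01 to 13.5%) and 10.2% (7.49 to 13.7%) of the SWEET11 and SWEET12 counts in the protoplast libraries, against 11.1% (10.6 to 11.6%) and 11.2% (10.7 to 11.7%) in the leaf libraries. These intervals overlap, so a difference between the groups in the ratio of both exporters was not detectable at this depth. SWEET13 per SWEET11 count stood at 0.0373 and 0.0307 in protoplasts, against 0.0647 and 0.0722 in leaf, and SWEET17 per SWEET11 count at 0.282 and 0.356 in protoplasts, against 0.0908 and 0.0856 in leaf. SWEET2 held 4.08 and 4.43 counts per SWEET11 count in protoplasts, against 0.231 and 0.188 in leaf. In each of these 3 ratios the groups did not overlap. Of all tested genes taken singly, 90.3% had groups that did not overlap, and no share was computed for ratios of other gene pairs.

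Markers of phloem were lower in protoplasts, and so were those of epidermis, guard cells and xylem given further below. All 7 phloem parenchyma markers, mostly amino acid exporters of the UMAMIT family, were called lower, against 40.7% of all tested genes. Their median log2 fold change was -5.36, and their summed levels were 7.59 and 7.05 CPM in protoplasts, against 274 and 264 CPM in leaf. UMAMIT11 fell by 5.96 ± 0.13, UMAMIT28 by 5.85 ± 0.17 and UMAMIT20 by 5.02 ± 0.09 on the log2 scale. BZIP9, a transcription factor of these cells, fell least, by 3.79 ± 0.14. None of them was at 0 in protoplasts. All 7 markers of companion cells and sieve elements were lower as well, with a median of -4.75 and sums of 19.0 and 19.2 CPM in protoplasts, against 663 and 696 CPM in leaf. PP2-A1, a phloem lectin, and AHA3, the proton pump of companion cells, had log2 fold changes of -6.33 ± 0.09 and -5.95 ± 0.10, and SEOB, a protein of sieve elements, and OPS, a regulator of phloem identity, had -3.37 ± 0.09 and -1.28 ± 0.17.

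SUC2, which takes up the sucrose that SWEET11 and SWEET12 release, had 6.16 and 6.45 CPM in protoplasts, against 165 and 174 CPM in leaf. Its log2 fold change was -4.75 ± 0.07 (edgeR, adjusted p = 5.33e-15). SWEET11 counts were 1.88 and 1.69 times those of SUC2 in protoplasts, against 1.36 and 1.35 times in leaf, and SWEET11 made up 65.3% (Wilson interval 61.6 to 68.8%) and 62.8% (58.6 to 66.9%) of both in protoplasts, against 57.6% (56.9 to 58.2%) and 57.5% (56.9 to 58.2%) in leaf. The intervals of the groups do not overlap.

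The other marker lists fell except for mesophyll, beside 40.7% of all tested genes that were called lower. All 6 tested epidermis markers were lower, with sums of 9.34 and 9.46 CPM in protoplasts, against 979 and 981 CPM in leaf, and 2 of the 7 listed, PDF1 and CER4, were at 0 in both protoplast libraries. Their median log2 fold change was -8.21, or -7.09 with CER4 at its bound. CER4, an enzyme of wax alcohols, was at least 48.9-fold lower against 3 counts per library, and CUT1, LTP1 and CER1 fell by 9.05, 6.38 and 3.30 on the log2 scale. CER4 passed the filter through leaf. All 5 guard cell markers were lower (median -5.87, sums of 2.51 and 2.37 CPM in protoplasts, against 41.2 and 41.9 CPM in leaf). Of these, ALMT12, MYB60 and SLAC1 had fewer than 10 counts in both protoplast libraries. They passed the filter through leaf, so only a fall could be called for them. The anion channel ALMT12, at 0 in protoplasts, was at least 64.4-fold lower, and for the regulator MYB60 leaf held 114 times the 3 counts of protoplasts (exact interval 38.9 to 556). SLAC1 and FAMA fell by 4.95 and 2.44 on the log2 scale. All 5 xylem markers were lower, with a median of -4.63 and sums of 1.86 and 2.14 CPM in protoplasts, against 29.7 and 33.1 CPM in leaf, from IRX3 (-5.70) and IRX5 (-5.44) to XCP1 (-3.40) and IRX1 (-2.08). IRX3 and IRX5 had fewer than 10 counts in both protoplast libraries and also passed the filter through leaf.

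Of 6 mesophyll markers, 5 rose with TMM factors and 0 fell, with a median of 0.57, beside 39.8% of all tested genes called higher. CA1, a carbonic anhydrase, and GAPB, of the Calvin cycle, rose by 1.10 ± 0.06 and 0.88 ± 0.05 on the log2 scale. RCA, which activates Rubisco, and the antenna gene LHCB4.2 rose by 0.51 ± 0.05 and 0.45 ± 0.05, but were lower with library size only (-0.29 and -0.36). With that scaling CA1 was at 0.30 and GAPB at 0.07, where its call ended (edgeR, adjusted p = 0.188). The part of cell type make-up in the SWEET results was not tested. SWEET2, the member that was level, had 0.00230 and 0.00228 counts per count of RCA in protoplasts, against 0.00356 and 0.00302 in leaf.

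**Figure D4:**
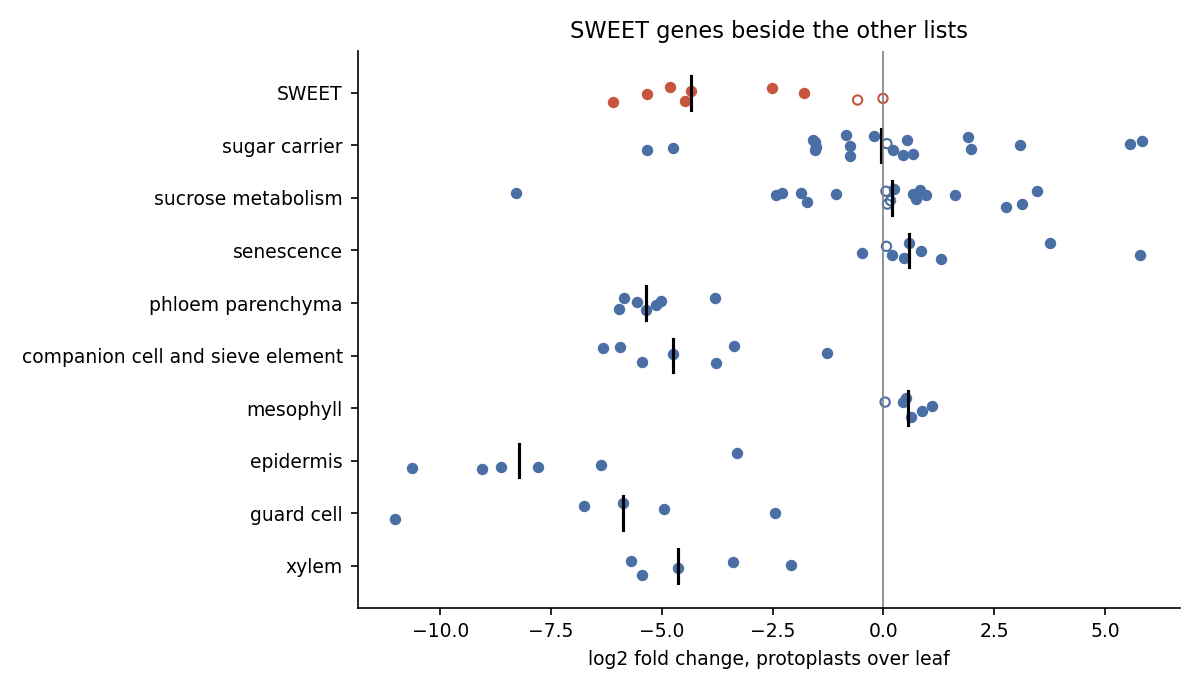
Log2 fold change of protoplasts over leaf for each tested gene of the SWEET set and 9 other lists; filled points passed adjusted p 0.05, open points did not, and black bars are medians. The SWEET genes run from -6.10 to -0.01 with a median of -4.35 (-2.51 without SWEET1 and SWEET4), and the sugar carriers spread on both sides of 0; values for genes at 0 in protoplasts (CER4, ALMT12 and SUS4) are fitted and are no bounds.

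Other sugar carriers changed in both directions. Of 20 listed proton symporters and facilitators for sucrose, hexoses and polyols, 9 rose, 10 fell and 1 was not past the threshold (50.0% lower, against 40.7% of all genes), with a median of -0.06. STP13, a hexose symporter induced in defence, had 342 and 322 CPM in protoplasts, against 5.71 and 5.84 CPM in leaf, a log2 fold change of 5.84 ± 0.07 (edgeR, adjusted p = 8.19e-16). SUC5, a sucrose symporter known from seeds, rose by 5.57 ± 0.37 from low levels, with 81 and 68 counts in protoplasts, against 2 and 3 counts in leaf. At the other end, STP14, a galactose carrier, had 3 and 2 counts in protoplasts, against 161 and 196 counts in leaf, and fell by 5.34 ± 0.35, next to SUC2. STP14 passed the filter through leaf and SUC5 through protoplasts, so only these directions could be called. With library size only, 5 of the 20 were called higher and 14 lower, beside 4326 higher and 14057 lower of all 20200 tested genes.

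Genes of sucrose synthesis and cleavage were also divided. Of 18 tested, 9 rose, 6 fell and 3 were not past the threshold (33.3% lower), with a median of 0.20. Of all tested genes, 39.8% were called higher and 40.7% lower. With library size only, 5 were called higher and 11 lower, beside 4326 higher and 14057 lower of all 20200 tested genes. CWINV1, a cell wall invertase that splits sucrose outside the cell, had 59.2 and 55.2 CPM in protoplasts, against 5.40 and 5.01 CPM in leaf, a log2 fold change of 3.46 ± 0.07 (edgeR, adjusted p = 2.47e-13). Among the sucrose synthases, SUS6 rose by 3.13 ± 0.09, SUS2 fell by 2.42 ± 0.47, and SUS4, at 0 counts in both protoplast libraries, against 49 counts in each leaf library, was at least 9.64-fold lower. SUS4 and SUS2, the latter with 5 and 2 counts in protoplasts, passed the filter through leaf.

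Senescence genes were listed because SWEET15 is one of them. SWEET15 fell, whereas among 9 tested senescence genes 7 were called higher and 1 lower (median 0.59), against 39.8% higher and 40.7% lower of all tested genes. Of the 10 listed, SAG12 had no row. The calls of this list were counted with TMM factors only, so how many hold under other scalings was not tested. WRKY6 and ORE1, transcription factors of leaf senescence, rose by 5.80 ± 0.06 and 3.76 ± 0.09 on the log2 scale. NAP, another regulator of senescence, fell by 0.49 ± 0.06. SAG101 was called higher at 0.20 ± 0.08 (edgeR, adjusted p = 0.0356), a call that ended without any 1 of the libraries (adjusted p = 0.0561 to 0.165) and with the replicate block (adjusted p = 0.0759). It was -0.13 by upper-quartile scaling and -0.60 by library size alone.

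The genes whose levels were most like those of 4 members were found by the mean absolute difference of log2(CPM + 0.1) over the 4 libraries, among 9637 genes with a symbol. SWEET2 was closest to ftsh3 and MAGO, at 0.06 each. SWEET11 had no close neighbour, with MAM1 at 0.30 and CCH at 0.33. SWEET12 was closest to HHP1 (0.08) and HMA4 (0.21), and SWEET17 to RANBP1 (0.09) and LEA3 (0.10). MAM1, the nearest to SWEET11, had 8.72 and 8.39 CPM in protoplasts, against 258 and 273 CPM in leaf. With 2 groups this likeness reflects a level and a single difference.

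The authors' deposited table calls the same 7 members lower. In the authors' deposited table the log2 fold changes were -4.33 for SWEET11, -4.46 for SWEET12, 0.01 for SWEET2 and -0.63 for SWEET16, with an adjusted p of 0.921 for SWEET2 and 0.582 for SWEET16.

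**Figure D5:**
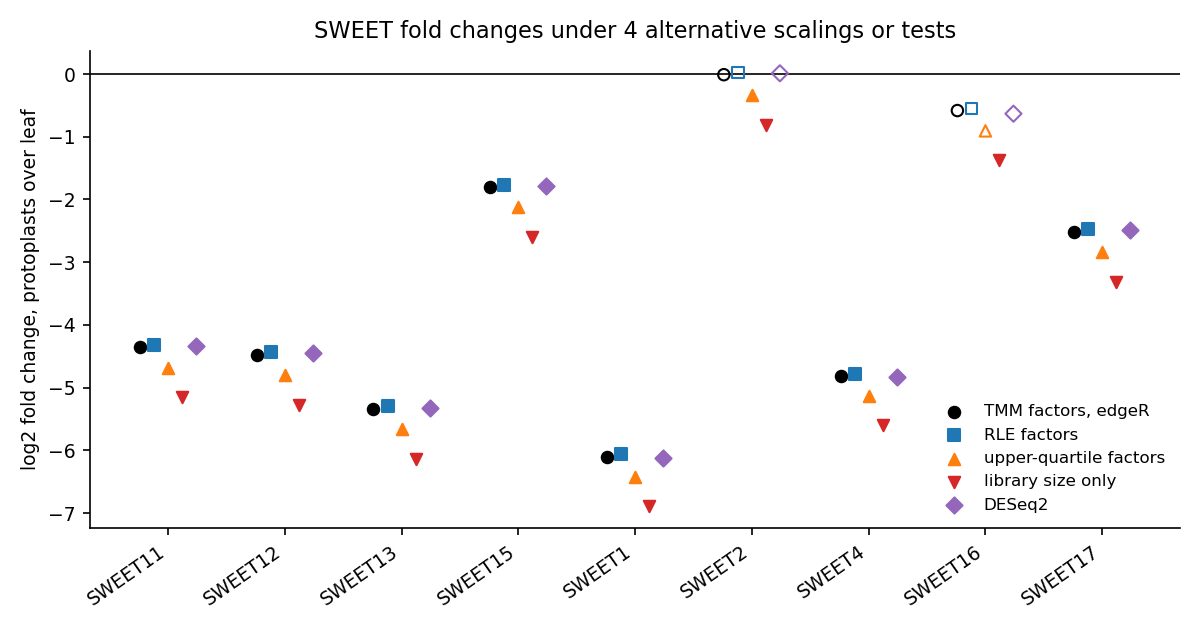
Log2 fold change of protoplasts over leaf for the 9 tested SWEET genes with TMM factors and under RLE factors, upper-quartile factors, library size only and DESeq2; filled symbols passed adjusted p 0.05 and open symbols did not. Library size only lies lowest for each gene, and SWEET2 moves between 0.03 with RLE factors and -0.82.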

How the data were processed

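The deposited table holds whole-number read counts per locus, 1 column per library, which the authors made with no normalization. The submitters' processing notes name STAR and DESeq. Their versions, the genome build, the gene annotation, the counter and its strand setting were not stated there. A second deposited table gives a log2 fold change and an adjusted p-value per gene; DESeq2 1.42.0, run here on all rows, gave its log2 fold changes to within 4.92e-07 and as many calls, 14834.

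Counts were tested with edgeR 4.0.16 in R 4.3.3 (quasi-likelihood F test, group as the only term, filterByExpr). TMM factors were 0.764 and 0.749 for protoplasts and 1.323 and 1.321 for leaf. Benjamini-Hochberg adjustment ran over 20200 genes, with a threshold of 0.05. The fit was also run on simulated counts with few changed genes, as many up as down, so that run could not test the scaling. Fold changes are protoplast minus leaf; SE is their size over the root of F, and their 95% intervals use the test's degrees of freedom. Coding lengths and sequences come from RefSeq TAIR10.1 by locus and were aligned with Biopython 1.88. Bounds for genes at 0 use a floor of 3 counts per library.

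The members, lists and alternatives were chosen with earlier results of these data known. Named genes are all members, the other SWEET genes with rows, the 2 called genes at each end of every list, and the 2 genes most like SWEET2, SWEET11, SWEET12 and SWEET17. Other scalings, no filter, DESeq2, a replicate block and leaving out each library were tried. Listed genes without a reference symbol stand by locus.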

Additional observations from a re-analysis of the deposited data

How the results depend on the processing

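The 7 SWEET calls kept their direction and threshold under all 10 alternatives, and 0 members were called higher in any. Of 520 alternative values over all named results, 495 were rated the same. These include counts of called genes as well as fold changes, and a count rated the same could differ. With library size only, 9 SWEET members were called lower in place of 7, which was rated the same. With library size only, 4326 genes were called higher and 14057 lower in place of 8036 and 8231; 5 sugar carriers were higher, and 5 sucrose metabolism genes were higher and 11 lower. With that scaling 23.5% of calls were higher, and with upper-quartile factors 35.9%, against 49.4% with TMM factors. SAG101 reversed with upper-quartile factors (-0.13) and also by library size alone (-0.60), and LHCB4.2 (-0.36) and RCA (-0.29) with library size only, where GAPB lost its call (0.07). Scaled by exonic length, a choice made after seeing the data, SWEET11 took 19.5% in protoplasts and 65.8% in leaf, and SWEET2 69.1% in protoplasts and 11.5% in leaf; the ranks of the first 8 in protoplasts and of all in leaf were kept. Leaving out 1 library in turn gave 7537 to 7957 genes higher, 7700 to 7928 lower and 7 to 8 SWEET genes lower, the eighth being SWEET16 without protoplast replicate 1. With the replicate block 7782 genes were higher and 7868 lower, with 7 SWEET genes lower; of the named genes the block ended the call of SAG101 alone (adjusted p = 0.0759). The shared numbers do not pair the samples in the labels, and deviations of same-numbered libraries correlated at -0.0793 across genes. SWEET1, SWEET4, SWEET14 and SWEET16 had at most 13 counts in each protoplast library, so their sizes are imprecise.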
